A study of Homo sapiens with 6 samples.

Results

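The transcripts of 9 enzymes of serine synthesis and folate one-carbon metabolism (PHGDH, PSAT1, PSPH, SHMT1, SHMT2, MTHFD1, MTHFD2, MTHFD1L and ALDH1L2) were followed through the depletion of NAMPT, the enzyme that makes nicotinamide mononucleotide for NAD salvage. They were taken by gene symbol from a table of 50868 genes. RNA came from B4G12 cells, an immortalised line labelled as corneal endothelium, the cells that pump fluid out of the cornea. The siControl group (3 libraries, genotype labelled WT) received a control siRNA, and the siNAMPT group (3 libraries, labelled NAMPT knockdown) an siRNA against NAMPT. Both groups are the same line under siRNA treatment, so no library comes from untreated cells. The labels used here state neither siRNA sequence, dose and time after transfection nor whether replicates were separate cultures. The p-values therefore measure the spread between these libraries, which may be technical.

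Cells make serine from the glycolytic intermediate 3-phosphoglycerate. PHGDH oxidises it with NAD, PSAT1 adds an amino group taken from glutamate, and PSPH removes the phosphate. SHMT2 in mitochondria and SHMT1 in the cytosol then split serine into glycine and a one-carbon unit, which tetrahydrofolate carries. In mitochondria MTHFD2 oxidises that unit with NAD and MTHFD1L releases it as formate. The cytosolic MTHFD1 takes formate up again for purines, thymidylate and methyl groups, and ALDH1L2 burns the unit to carbon dioxide. Several of these genes are known targets of ATF4, the transcription factor of the amino acid stress response.

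Total counts per library lay between 19510796 and 22364717. Levels are given as CPM, counts scaled to library size with TMM factors, and differences as log2 fold changes of siNAMPT against siControl from edgeR's quasi-likelihood test, with p adjusted by Benjamini-Hochberg over 15213 genes. NAMPT averaged 173 ± 10.4 CPM in the control libraries and 28.5 ± 1.53 CPM after its knockdown (SD, n = 3 each), which fits the labels. The label of the tissue was met in part. Of 12 markers listed for corneal endothelium 6 stayed under 1 CPM in all libraries, COL8A2 and NCAM1 among them, while SLC4A11 was at 30.3 CPM in siControl. The epithelial keratins KRT5 and KRT14 were at 1929 and 1600 CPM. The summed level of 10 epithelial markers was 4217 to 4585 CPM in siControl and 4934 to 5583 CPM in siNAMPT, with KRT12 at 0. That list went both ways: KRT15 rose from 266 to 958 CPM and KRT5 to 2292 CPM, while KRT14 fell to 1301 CPM and EPCAM from 139 to 120.4 CPM. The sum of the endothelial list was 1479 to 1507 CPM in siControl and 1330 to 1501 CPM in siNAMPT, and its member CDH2 fell from 169 to 89.0 CPM (adjusted p = 7.92e-05, edgeR). The sum of 8 stromal markers was 17.1 to 19.6 and 26.3 to 29.5 CPM, with KERA at 0. The part of these shifts in the results below was not tested.

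Of the 9 enzymes 2 fell steeply, PSAT1 by 3.51-fold and MTHFD2 by 2.56-fold, and the other changes were small. Of 8 enzymes tested, 5 fell (PSAT1, MTHFD2, SHMT2, MTHFD1 and MTHFD1L), 1 rose (PSPH), and PHGDH and SHMT1 were not called. ALDH1L2 was too low to be tested. Across all genes tested 42.7% were called at an adjusted p under 0.05, 21.9% lower and 20.8% higher, so a call as such was common. Falls of at least 2-fold were not: 3.79% of all genes had one, against 2 of the 8 enzymes. The enzymes were chosen with earlier results of these data known, so this is no measure of an excess. The libraries of the groups did not overlap for 7 of the 8, where 54.9% of all genes did so. The median log2 fold change of the 8 was −0.17, beside 0.00 for all genes tested. In RNA from a whole culture, fewer cells that express a gene and less RNA per cell cannot be told apart.

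**Figure D1:**
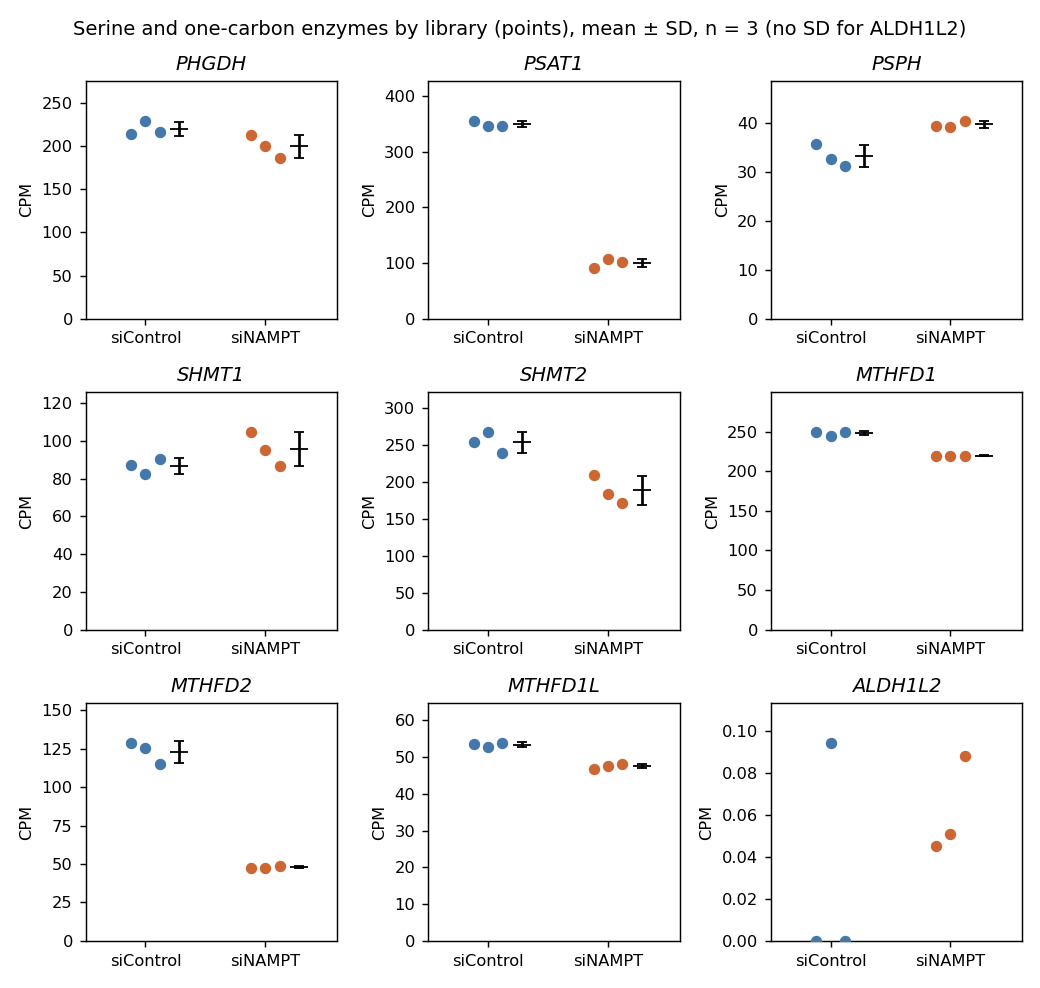
Level of each enzyme's transcript in CPM (vertical axis, starting at 0 and scaled separately in each panel) in the 3 siControl and 3 siNAMPT libraries. Points are libraries and bars are means with SD. PSAT1 and MTHFD2 show gaps far wider than the spread within a group, and ALDH1L2 stays at or under 0.094 CPM.

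PHGDH, the first enzyme of serine synthesis, lay at 215, 230 and 216 CPM in the siControl libraries and at 213, 199.98 and 187 CPM in the siNAMPT libraries. All 3 siNAMPT libraries were below the siControl ones, with siNAMPT replicate 1 just under siControl replicate 1. The log2 fold change was −0.14 (SE 0.06) and did not pass (adjusted p = 0.118, edgeR). It ranged from −0.18 to −0.09 across 11 alternative analyses, none of which gave a call.

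PSAT1, the aminotransferase of the next step, was at 356, 347 and 346 CPM in siControl and at 91.3, 106 and 101 CPM in siNAMPT. The siNAMPT libraries lay far below all siControl libraries. The log2 fold change was −1.81 (SE 0.07, adjusted p = 7.02e-06, edgeR), a 71.5% fall. It ranked 118 among the tested genes, counted from the most negative value. PSAT1 (ENSG00000135069) occupies bases 78297143 to 78330093 of chromosome 9 in GRCh38.

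PSPH, the phosphatase that releases serine, stood at 35.8, 32.7 and 31.3 CPM in siControl and at 39.4, 39.3 and 40.5 CPM in siNAMPT. It rose by log2 0.26 (SE 0.07, adjusted p = 0.0255, edgeR), with all siNAMPT libraries above all siControl libraries. The call rested on a narrow margin. It was lost without siControl replicate 2 (adjusted p = 0.0873) or 3 (0.0820), without siNAMPT replicate 2 (0.0517) or 3 (0.0719), and with no filter on low counts (0.0567). The 3 steps of serine synthesis thus gave 3 different outcomes, a steep fall at the middle one, a small rise at the last and no call at the first.

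Ratios within each library restate the changes of these enzymes from the same counts. The log2 ratio of PSAT1 to PHGDH, from the deposited FPKM (fragments per kilobase, scaled to the library's total), was 2.17, 2.03 and 2.12 in siControl and 0.22, 0.53 and 0.55 in siNAMPT. The difference was −1.67, which is 3.19-fold. An exact two-sided permutation test gave p = 0.1, the smallest that 3 libraries against 3 allow, and it was 0.1 for all 3 ratios examined, also after Benjamini-Hochberg adjustment. The SD within groups was 0.07 and 0.19, so the difference was many times the spread.

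SHMT2, the mitochondrial serine hydroxymethyltransferase, was at 254, 268 and 239 CPM in siControl and at 210, 184 and 172 CPM in siNAMPT. It fell by 0.43 on the log2 scale (SE 0.08, adjusted p = 0.0055, edgeR), and the call was kept in all 11 alternatives. The groups did not overlap, with siNAMPT replicate 1 the nearest to the control libraries. An opposite-strand neighbour, NDUFA4L2, overlaps SHMT2 at 41 to 90 counts a library, against 3617 to 5676 for SHMT2.

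SHMT1, its cytosolic counterpart, was at 87.5, 82.4 and 90.4 CPM in siControl and 105, 95.0 and 86.9 CPM in siNAMPT. Here the groups overlapped, since siNAMPT replicate 3 lay inside the control range. The log2 fold change of 0.14 (SE 0.08) did not pass (adjusted p = 0.205, edgeR). SHMT1 overlaps SMCR8 on the opposite strand, which had 2850 to 3031 counts in siControl and 3201 to 3698 in siNAMPT. Whether counting used strand is not given in the sources used here, so reads of the pair cannot be told apart.

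The log2 ratio of SHMT2 to SHMT1 was 0.78, 0.95 and 0.65 in siControl and 0.25, 0.20 and 0.23 in siNAMPT, a difference of −0.57. Its groups did not overlap (exact permutation p = 0.1). Reads shared with SMCR8 could enter the SHMT1 side of this ratio, and their part was not tested.

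MTHFD2, the mitochondrial dehydrogenase and cyclohydrolase that is abundant in embryonic and dividing cells, was at 129, 125 and 115 CPM in siControl. In siNAMPT it was at 47.4, 47.6 and 48.9 CPM, a narrow spread. The log2 fold change was −1.36 (SE 0.06, adjusted p = 1.62e-05, edgeR), a 61.0% fall that was called in all 11 alternatives. MTHFD2 (ENSG00000065911) lies on chromosome 2 from 74198562 to 74217565.

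MTHFD1, the cytosolic enzyme with 3 activities, was at 250, 245 and 250 CPM in siControl and at 219, 219 and 220 CPM in siNAMPT. The fall was small, 0.18 on the log2 scale (SE 0.04, adjusted p = 0.0142, edgeR), but the spread in each group was smaller and the call was kept in all alternatives. The opposite-strand gene ZBTB25 overlaps it at 327 to 426 counts a library.

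MTHFD1L, the mitochondrial formate-releasing enzyme, was at 53.6, 52.7 and 53.9 CPM in siControl and 46.9, 47.6 and 48.1 CPM in siNAMPT. Its fall of 0.17 on the log2 scale (SE 0.06) was of the same size as that of MTHFD1 and just passed (adjusted p = 0.0483, edgeR). None of the 11 alternatives kept that call, with adjusted p between 0.0508 (RLE scaling) and 0.116 (without siControl replicate 1). The direction was lower in every one of them. AL133260.1 overlaps MTHFD1L on the same strand at 104 to 134 counts a library, against 938 to 1170 for MTHFD1L. The part of reads shared with it was not tested.

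The log2 ratio of MTHFD2 to MTHFD1 was −0.62, −0.63 and −0.78 in siControl and −1.87, −1.87 and −1.83 in siNAMPT. The difference of −1.18 was the second largest of the 3 ratios (exact permutation p = 0.1). In mitochondria the dehydrogenase MTHFD2 fell steeply and the formate-releasing MTHFD1L moved by 0.17 on the log2 scale, a split like that between PSAT1 and its neighbours in serine synthesis.

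ALDH1L2, the mitochondrial formyltetrahydrofolate dehydrogenase, had 0, 2 and 0 counts in siControl and 1, 1 and 2 in siNAMPT. These lie under the limit of 3 counts, which is 0.132 to 0.152 CPM in these libraries, so a difference was not detectable at this depth. The cytosolic ALDH1L1 was as low, with 0 to 0.142 CPM. Transcripts of both enzymes that oxidise one-carbon units to carbon dioxide were thus at the limit of detection in the line.

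**Figure D2:**
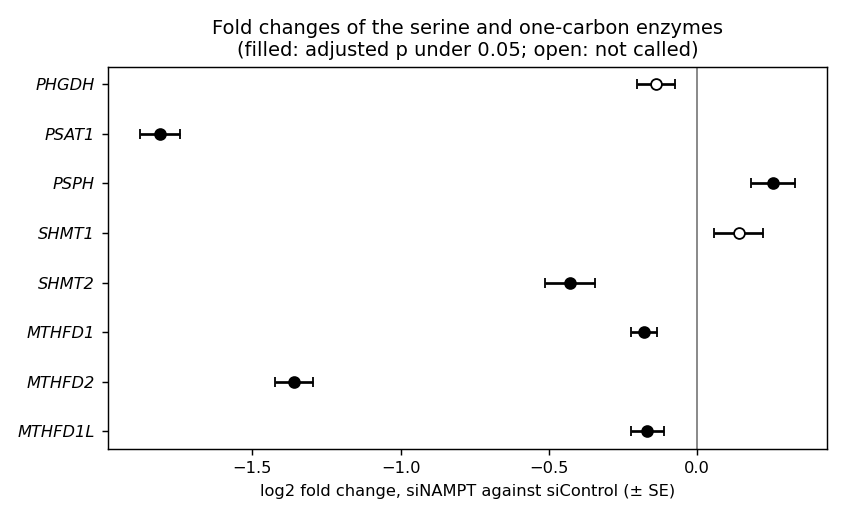
Log2 fold change of each tested enzyme (horizontal axis, siNAMPT against siControl) with its SE; filled points had an adjusted p under 0.05 and open points did not. PSAT1 (−1.81) and MTHFD2 (−1.36) stand apart from the other 6, which lie between −0.43 and 0.26.

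**Figure D3:**
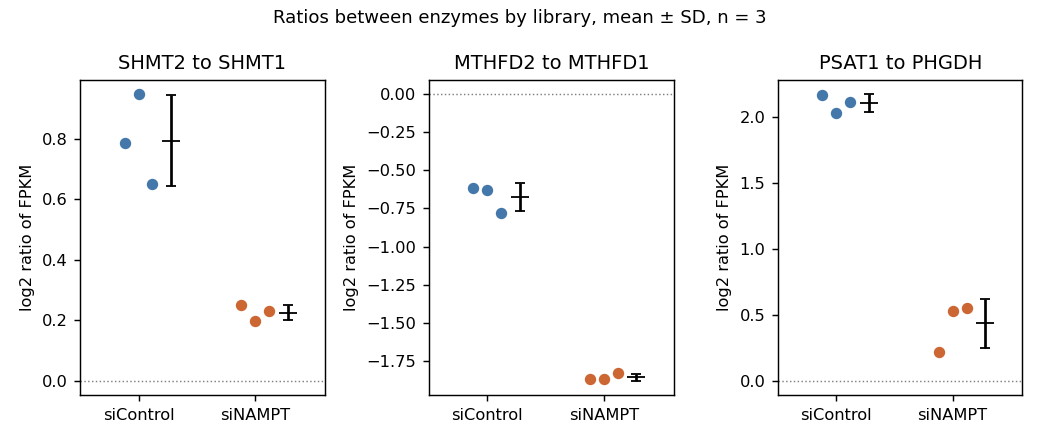
Log2 ratio of deposited FPKM between pairs of enzymes (vertical axes, each with its own range) in the 3 libraries of each group, with mean and SD. All siNAMPT libraries lie below all siControl libraries in the 3 panels, with differences of −0.57, −1.18 and −1.67 from left to right.

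Levels of different enzymes can be set beside each other only per length, and the order depended on the length used. Per kilobase of 1 GENCODE transcript, PSAT1 led in siControl at 160 ± 2.51 CPM per kilobase (SD, n = 3). It was followed by SHMT2 (99.9), PHGDH (85.2), MTHFD1 (79.1), SHMT1 (35.2), MTHFD2 (27.6), PSPH (15.3) and MTHFD1L (14.8), of which only the last pair overlapped. In siNAMPT PSAT1 was at 45.5 ± 3.48 CPM per kilobase (SD, n = 3), in the fourth place after PHGDH (77.4), SHMT2 (74.3) and MTHFD1 (69.9). The libraries of these 3 overlapped in neighbouring pairs, as did those of PSAT1 and SHMT1 (38.8). MTHFD2 went from the sixth place to the eighth, at 10.8 CPM per kilobase.

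With the deposited FPKM, PSAT1 kept the first place in both groups, at 130 ± 1.61 and 37.7 ± 3.22 FPKM (SD, n = 3 each), ahead of PHGDH at 30.2 and 27.8 FPKM. The deposited FPKM imply 2662 bases for PSAT1 but 17952 bases for SHMT2, whose whole locus spans 5609 bases. Such a length exceeds the locus for 6.37% of genes with a count. It cancels in a comparison of groups, not in a comparison of genes.

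Copies of these genes elsewhere in the genome took few reads. Of 14 rows named as pseudogenes of the 9 enzymes, 10 were at 0 in every library and none passed 17 counts. PSAT1P3 had 10, 6 and 8 counts in siControl and 4, 1 and 0 in siNAMPT, and reads of near-identical copies could have been shared in counting. Against 2029 to 7566 counts for PSAT1 this is a small share.

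The profiles most like each enzyme were sought among 9284 other coding genes of at least 10 CPM, by the Euclidean distance of log2 CPM over the 6 libraries, each gene relative to its siControl mean. MTHFD1 and MTHFD1L were each other's nearest gene (distance 0.03), although they lie on different chromosomes and work in different compartments. PSAT1 was nearest to the phosphatase subunit PPP6C (log2 fold change −1.75) and to cyclin D1 (CCND1, −1.87). MTHFD2 was nearest to the HSP90 cochaperone FKBP4 (−1.40) and the AP-1 subunit FOSL1 (−1.38). For 3 of the enzymes that changed little, the nearest genes were PKN3 and SSR4 (PHGDH), PPP1R7 and WHAMM (PSPH) and DYNLRB1 and STX8 (SHMT1). With 6 libraries in 2 groups, such a distance mostly measures a like size of change.

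The 2 enzymes with steep falls share a sequence feature. In earlier results of these data, genes with the word TACCATA in the 3′ UTR tended to be lower in siNAMPT, and the word was therefore looked up here in 1 GENCODE transcript per gene. PSAT1 and MTHFD2 each hold 1 copy, and none of the other 6 tested enzymes holds it or its core ACCATA. Each site is shown with its flanks, 5′ to 3′ on the transcript's strand with the word in capitals, together with sites in a pair of purine enzymes described further on. They lie at chr9:78329646-78329675 (+), chr2:74214488-74214517 (+), chrX:107650738-107650767 (+) and chr4:56394048-56394077 (−) in GRCh38.
PSAT1: tctgtttttaaTACCATAtactttatattt
MTHFD2: atgggagacatTACCATAtggaggatggat
PRPS1: aatgaacattgTACCATAgtcttctggaaa
PPAT: ttctgttatgtTACCATAatttgatgtata

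Beyond the word itself the flanks differ. Of 12082 tested coding genes with a 3′ UTR of at least 50 bases, 939 (7.77%) hold TACCATA. Their median log2 fold change was −0.32, with 15.7% at least 2-fold lower, against −0.00 and 3.10% for the 11143 genes without it. The word was taken from earlier results of these same data, so this difference restates how it was found and is no independent support. Long UTRs hold more words, and the sets were not matched for UTR length. The UTR of MTHFD2 has 3323 bases and that of PSAT1 1007, while those of the other 6 have 150 to 877. Of the nearest profiles named above, PPP6C holds TACCATA 2 times, CCND1 and FOSL1 hold the core, and FKBP4 holds none. Those genes were chosen for a fall like that of PSAT1 or MTHFD2. The share of all genes that hold the core is not given here, so nothing can be read from this. The part of the word in the falls of PSAT1 and MTHFD2 was not tested.

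Transcripts of ATF4 itself also fell. ATF4 was at 472, 466 and 456 CPM in siControl and 328, 311 and 325 CPM in siNAMPT (log2 −0.53, SE 0.04, adjusted p = 1.29e-04, edgeR). Its relative ATF5 fell from 44.3 ± 1.28 to 16.7 ± 2.22 CPM (SD, n = 3 each). Of 13 genes listed as ATF4 and its regulators 5 fell, none rose and 8 were not called by edgeR. Among those not called, DDIT3 (0.54), ATF3 (0.26) and TRIB3 (0.19) lay above 0. The rest of them lay between −0.16 (EIF2AK2) and −0.01 (CEBPB). These genes too are named after their values were seen. The share called was 38.5%, beside 42.7% of all genes tested. The count lower was 3 without siControl replicate 1 or 2 or siNAMPT replicate 1, and the call of CEBPG (−0.24), named after its values were seen, was kept in none of 11 alternatives. The count higher was 0 also at an unadjusted p under 0.05 and by DESeq2, but 1 with the replicate block and without siControl replicate 3, siNAMPT replicate 1 or siNAMPT replicate 3. ATF4 is controlled mainly at translation, so its transcript does not measure its activity, and its part in the falls was not tested. Among 8 tested members of a list of other known activators, the fallers were the kinase PKM (−0.31) and the RNA-binding factor YBX1 (−0.15). Both calls were lost without siControl replicate 1 or 2 or siNAMPT replicate 2 or 3, with adjusted p up to 0.0975 for PKM and 0.0930 for YBX1.

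RefSeq start-site windows (GRCh38.p14, 250 bases before to 50 after a start) were at hand for PHGDH, PSAT1, SHMT1, MTHFD1, MTHFD2 and, with 4 starts, MTHFD1L. They were searched on both strands for the C/EBP-ATF response element bound by ATF4, written TGATGNAA, and for the E-box CACGTG bound by MYC. The first stands in 3.62% of all 35116 windows and the second in 7.26%. Of the 6 enzymes only MTHFD1L matched the first, in 3 overlapping windows, and MTHFD1 and MTHFD1L matched the second. The stretch of MTHFD1L that holds both, in capitals, lies at chr6:150866317-150866379 on the plus strand.
MTHFD1L: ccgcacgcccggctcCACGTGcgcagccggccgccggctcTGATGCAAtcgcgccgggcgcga

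MTHFD1L, which holds both, had more windows to search than any other enzyme, and SHMT2, PSPH and ALDH1L2 had none. Whether either motif has a part in any change was not tested. A match is a description of letters, and the windows of PSAT1 and MTHFD2 say nothing of sites outside them.

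The neighbouring pathways moved unevenly as well. Of 85 tested genes in 10 lists around the 9 enzymes, 28 fell, 13 rose and 44 were not called, a share of 48.2% called beside 42.7% of all genes.

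Among other folate enzymes 3 of 9 tested were called higher and 1 lower. The count higher was 1 by limma, whose minimum FPKM left MTHFD2L untested. MTHFD2L, the isozyme of MTHFD2, rose from 6.65 to 9.91 CPM (log2 0.58, adjusted p = 0.0150, edgeR). Its call was kept in all 10 alternatives that tested it. TYMS, thymidylate synthase, fell from 143 ± 7.22 to 74.2 ± 3.85 CPM (SD, n = 3 each; log2 −0.95).

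Of 5 tested genes of folate transport and retention 2 fell and 1 rose. The plasma membrane carrier SLC19A1 fell from 32.2 to 17.9 CPM (log2 −0.85) and the mitochondrial carrier SLC25A32 from 31.7 to 20.4 CPM (−0.63). The SLC25A32 call was lost without siControl replicate 2 (adjusted p = 0.0530) or 3 (0.0510). GGH, which trims folate tails, was called higher (0.21), and 8 of 11 alternatives did not keep that call, among them all that left out a library but siNAMPT replicate 1 (adjusted p up to 0.133). Of 3 tested genes of the glycine cleavage system 0 were called by edgeR or DESeq2, though 1 higher and 1 lower value had an unadjusted p under 0.05 (edgeR). With limma and without siNAMPT replicate 1 the count higher was 1, through DLD (adjusted p = 0.0467 and 0.0284), named after its values were seen. GLDC, the decarboxylase of the system, was at 0.046 to 0.264 CPM.

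Purine synthesis, the main user of formyl groups, held the steepest falls among these lists. PRPS1, which makes the ribose phosphate donor, was at 115, 109 and 115 CPM in siControl and 22.8, 24.0 and 27.0 CPM in siNAMPT (log2 −2.20). PPAT, the committing amidotransferase, fell from 52.4 ± 1.23 to 18.9 ± 1.22 CPM (SD, n = 3 each; log2 −1.47). Of the 13 enzymes 6 fell, 2 rose (ADSS1 by 0.96 and ADSS2 by 0.27) and 5 were not called. The ADSS2 call was lost without siControl replicate 2 (adjusted p = 0.0642) or siNAMPT replicate 3 (0.0546). The formyl-transferring steps were not among the steep falls: GART was at 185 and 175 CPM (−0.08, adjusted p = 0.239), and ATIC fell by 0.21 on the log2 scale. These 2, and ADSL (−1.10), were picked after their values were seen. PRPS1 and PPAT hold TACCATA, as shown above.

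The word did not go with a fall throughout. Of 8 tested genes in the neighbouring lists that hold TACCATA, 4 fell (PRPS1, PPAT, SLC38A1 and GMPS), 2 rose (SPTLC2 by 0.50 and AHCYL1 by 0.30) and 2 were not called (PAICS and SFXN2). The AHCYL1 call was lost with the replicate block (adjusted p = 0.0585) and without siControl replicate 2 (0.0737) or 3 (0.0780) or siNAMPT replicate 2 (0.0684) or 3 (0.0835). Of the 77 without it 24 fell and 11 rose, and the medians of both sets were −0.08 and −0.09. PAICS was at 179, 331 and 187 CPM in siNAMPT, so that replicate 2 stood apart. ADSL, TYMS, SLC19A1 and ATF5 fell without the word. AHCYL1, GMPS, PAICS and SFXN2 are named for the word, a choice made after the values were seen.

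In the methionine cycle 3 of 10 tested genes were called higher and 3 lower, with the count higher at 1 without siControl replicate 2 or 3 or siNAMPT replicate 3. MTRR, which reactivates methionine synthase, fell by 0.89 on the log2 scale, though its siControl libraries ranged from 57.9 to 91.0 CPM. MAT2A, the catalytic subunit that makes S-adenosylmethionine, fell from 397 to 290.3 CPM (−0.45), while its regulatory subunit MAT2B rose from 96.8 to 134 CPM (0.47). AHCYL2 was called higher (0.50), but not without siControl replicate 1, 2 or 3 or without siNAMPT replicate 1 or 3 (adjusted p of 0.0503 to 0.0939).

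Serine and glycine transport had 3 falls and 1 rise among 10 tested genes. The glycine carrier SLC6A9 fell from 60.2 to 40.5 CPM (−0.57) and the amino acid carrier SLC38A1 by 0.36 on the log2 scale. SFXN3, a mitochondrial sideroflexin, rose from 52.5 to 78.5 CPM (0.58). Among users of serine SPTLC3 (0.62) and SPTLC2 (0.50), subunits of the enzyme that starts sphingolipid synthesis, rose and PTDSS2 (−0.43), a phosphatidylserine synthase, fell. The remaining 5 tested genes of that list were not called.

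Around 3-phosphoglycerate, the substrate of PHGDH, 6 of 7 tested genes of lower glycolysis were called lower and 1 higher, with a median of −0.35. The count lower was 4 without siControl replicate 1 or 2 or siNAMPT replicate 3. PKM, also counted among the other activators above, is 1 of the 6. Its libraries overlapped between groups, and 4 of 11 alternatives did not call it. PGAM1, which draws 3-phosphoglycerate away from serine, fell from 391 to 297 CPM (−0.40). BPGM, which makes 2,3-bisphosphoglycerate, rose from 12.4 to 17.4 CPM (0.49). ENO2 had the lowest value (−0.50) at only 3.12 and 2.21 CPM, and 8 of 10 alternatives did not call it, among them all that left out a library but siNAMPT replicate 2 (adjusted p up to 0.154). The 6 values below 0 lay between −0.50 and −0.27, a narrower range than that of the 5 enzymes that fell (−1.81 to −0.17).

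**Figure D4:**
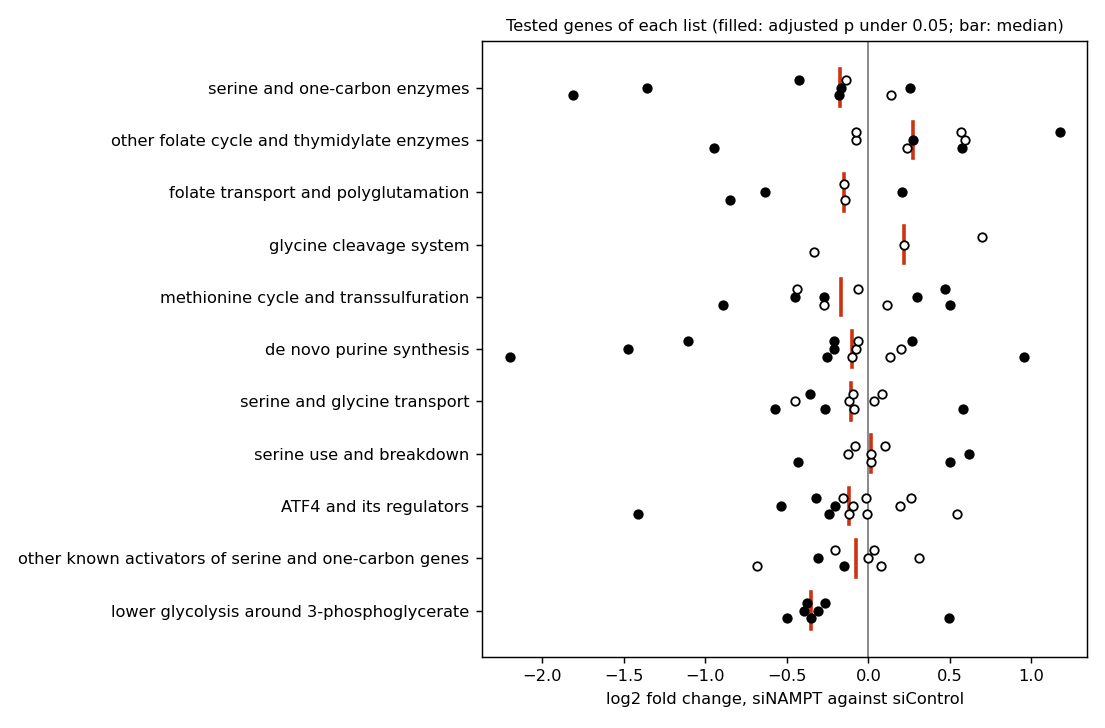
Log2 fold change (horizontal axis) of every tested gene in the list of serine and one-carbon enzymes and in the 10 lists around it (rows); filled points had an adjusted p under 0.05 and red bars are medians. PSAT1 (top row, left) lies between PRPS1 and PPAT, and MTHFD2 (−1.36) lies next to ATF5 (−1.41). Of the 7 glycolytic genes 6 lie between −0.50 and −0.27.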

How the data were processed

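The 6 libraries were mRNA libraries sequenced as read pairs, per the labels' protocols. The authors deposited whole-number counts per gene and library, with no normalization, per the file headers. The deposited FPKM equal the count over a gene length and the library's total, with 1 length per gene in all libraries (within a relative tolerance of 0.001). Builds GRCh38 and mm10 stand in the submitters' processing notes. Aligner, counter, strand setting and annotation: not given in the sources used here. Of the gene IDs 98.5% are in GENCODE 29, and 94.9% of these have the same position, which is why positions are stated on GRCh38. Columns of other samples numbered 0.

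The main test was the quasi-likelihood F test of edgeR (version 4.0.16, R 4.3.3), two-sided, after filterByExpr and TMM, with group as the only term. Values of p were adjusted by the Benjamini-Hochberg method across every tested gene, and 0.05 was the threshold. The SE is the log2 fold change over the root of F. Libraries of 1 group differed by more than sampling noise. Ratios of FPKM had no pseudocount and were tested by exact permutation. The enzymes and gene lists were chosen with earlier results of these data known.

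All 9 enzymes and NAMPT are named, with MTHFD2L, ALDH1L1, TYMS, GLDC and ATF4 whatever their result. Some genes that the rule names are not reported here. From each list around them come up to 2 risers and 2 fallers with the largest called changes, then the 2 nearest profiles (prior count 0.5), pseudogenes and overlapping genes. Others are said to have been picked after their values were seen.

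For 3′ UTRs 1 GENCODE 29 transcript per gene was used (APPRIS principal, then the longest). The fit was tested on simulated data over 15213 genes for siNAMPT against siControl, and it called 30% of genes changed 1.5-fold, 78% at 2-fold and 94% at 4-fold. None of 50 genes changed 1.25-fold was called. Only 50 genes were changed at each fold, where 6500 genes were called in the data. The adjustment was therefore stricter in the simulation, and these shares do not give the share detectable in the data. Alternatives were RLE scaling, DESeq2 1.42.0, no filter on low counts, limma 3.58.1 on log2(FPKM + 1) for genes of FPKM at least 1 in 3 libraries, a block for replicate number, and each library left out. Per-length levels and the word search were added after the data were seen. Tables were made with pandas 2.3.3 and numpy 2.4.6 under Python 3.11.15, and plots with matplotlib 3.10.9.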

Additional observations from a re-analysis of the deposited data

How the results depend on the processing

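Across the alternatives, PSAT1 (−1.86 to −1.75), MTHFD2 (−1.41 to −1.19), SHMT2 (−0.51 to −0.36) and MTHFD1 (−0.19 to −0.15) kept direction and call in all 11, and PHGDH and SHMT1 were called in none. The number of the 9 enzymes called higher went from 1 to 0 with no filter on low counts, and lay between 0 and 1 when single libraries were left out, since PSPH is the only one. With a pseudocount of 1 on FPKM the difference in the MTHFD2 to MTHFD1 ratio was −1.04, by construction nearer to 0. PAICS turned from 0.13 to a called fall of −0.21 without siNAMPT replicate 2, the library at 331 CPM, and ranged up to 0.29 with other libraries left out. Over all single genes and alternatives, 925 of 1025 values kept their side of the threshold and direction, 85 lost the call, 14 gained one and 1 turned. The labels do not say that replicate numbers mark a shared culture or day. Deviations of same-numbered libraries correlated at 0.058, 0.008 and 0.043, the highest value for each siControl library. Seen from the other group, siNAMPT replicate 2 correlated best with siControl replicate 3 (0.016). These correlations were weak and the labels give no pairing, so the numbers were not taken as pairs in the main test. With the replicate block 6336 genes were called in place of 6500, and 5 of the 9 enzymes in place of 6. At this depth and with 3 libraries a group, the calls of MTHFD1L and PSPH sat at the edge of the threshold. MTHFD1, with a change about as small as that of MTHFD1L, kept its call in all 11 alternatives, so size alone did not decide a call.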
